A study of Mus musculus with 16 samples.

Results

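The regions described here are 845 weak Miz1 peaks that lie near gene ends and were listed in P6D4 cells without a counterpart in 70Z/3 cells. They are the peaks of the P6D4 Miz1 list whose pileup, the authors' height of the stacked tags at the summit, was under 25, whose summit lay within 5 kb of an end of a protein-coding gene (mm10 coordinates), and which shared no base with a 70Z/3 peak, with chromosome 15 left out. Of 21629 P6D4 peaks, 21417 were under that height, 1070 of these lay near a gene end, 213 of the 1070 overlapped a 70Z/3 peak and another 12 were on chromosome 15. The 845 peaks were assigned to 616 genes, each peak to the gene with the nearest end. The height, the distance limit and the absence from the other list chose the peaks, so they are given below as a description.

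The 2 lines are mouse lymphoid tumour lines. P6D4 is labelled as a SCID.adh thymic lymphoma at the DN3 stage, at which thymocytes have a pre-T cell receptor at most, and 70Z/3 is labelled as a lymphoblast at the pre-B stage. No treatment or engineered allele is labelled for either line. RNA-Seq was made from 3 libraries per line, and Miz1 ChIP-Seq once per line with a rabbit antibody, so peak values come without replicates. The labels do not say whether the RNA libraries came from separate cultures; the p-values below reflect library-to-library spread, possibly technical, and nothing wider.

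Miz1, the product of Zbtb17, is a zinc finger transcription factor with a BTB domain. It binds near the start sites of many genes, can activate them, and represses some of them when Myc is bound to it; Cdkn1a, which codes for the cell cycle inhibitor p21, is a classic target. It is required in lymphoid progenitors for early B and T cell development. In the RNA libraries Zbtb17 was at 44.4, 46.0 and 45.7 CPM (counts scaled to the library's total) in P6D4 and at 41.3, 40.5 and 41.5 CPM in 70Z/3. The groups did not overlap, and the log2 difference of 0.14 ± 0.04 (SE) passed edgeR's quasi-likelihood test (adjusted p = 0.00426).

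Few of the summits fell inside the promoter window of a gene, taken as 250 bases before to 50 bases after the RefSeq start. The windows of 4 genes held a summit: Fkbpl and the predicted genes Gm51594, Gm52432 and Gm52435. The upstream 250 bases of Fkbpl, which codes for a protein related to the FK506-binding proteins, are printed because the summit lies 55 bases before the start; the gene was chosen after its values were seen. Capitals mark the 21 bases centred on the summit. The promoters of Unc45a and Zfp263 are printed beside it for contrast, since their member peaks lie outside the window: the Unc45a summit is 285 bases past the start used for the window (1066 bp inside the gene's outer bound), and the Zfp263 summit is 515 bases before its start. In these 2 the capitals mark GGGCGG, the GC box core bound by Sp1-type factors, read on either strand. Of the 36 member genes with a promoter window within 1 kb of a summit, 14 held this word. No link between the word and the summit position is read from the sequences printed. All 3 are RefSeq sequences of GRCm38.p6, read 5′ to 3′ along the gene. Fkbpl lies at chr17:34644564-34644813 on the plus strand, Unc45a at chr7:80340220-80340469 on the minus strand and Zfp263 at chr16:3743849-3744098 on the plus strand.
Fkbpl: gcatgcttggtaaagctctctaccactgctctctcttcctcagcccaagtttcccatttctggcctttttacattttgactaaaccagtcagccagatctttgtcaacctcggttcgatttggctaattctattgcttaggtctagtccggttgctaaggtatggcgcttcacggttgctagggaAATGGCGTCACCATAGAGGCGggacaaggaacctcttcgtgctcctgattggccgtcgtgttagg
Unc45a: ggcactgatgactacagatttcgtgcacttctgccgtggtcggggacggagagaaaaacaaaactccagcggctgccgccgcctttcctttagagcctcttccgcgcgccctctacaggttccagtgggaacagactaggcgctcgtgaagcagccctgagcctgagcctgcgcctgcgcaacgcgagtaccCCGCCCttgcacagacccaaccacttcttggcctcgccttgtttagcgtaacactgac
Zfp263: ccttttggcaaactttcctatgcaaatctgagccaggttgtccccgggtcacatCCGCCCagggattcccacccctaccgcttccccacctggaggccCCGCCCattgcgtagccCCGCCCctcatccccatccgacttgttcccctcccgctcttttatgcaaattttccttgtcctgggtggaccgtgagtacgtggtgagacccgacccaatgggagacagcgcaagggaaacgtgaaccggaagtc

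The Fkbpl stretch is 49.6% G and C and holds a CCAAT word near its end, on the opposite strand, and no GGGCGG. The upstream bases of Unc45a and Zfp263 are 60.0 and 59.6% G and C. RNA of Fkbpl was at 4.20, 4.72 and 4.91 CPM in P6D4 and at 2.64, 2.20 and 2.53 CPM in 70Z/3, with no overlap and a log2 difference of 0.91 ± 0.11 (SE, edgeR adjusted p = 4.39e-06).

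By the authors' scores the 845 peaks were low and narrow. The pileup ran from 4 to 24 with a median of 10, and the fold, the ratio of the pileup to the local background, from 3.73 to 19.2 with a median of 6.67. The median length was 346 bp. The 15361 other weak peaks found in the P6D4 list alone, which lay over 5 kb from a gene end, had the same median pileup of 10 and a median fold of 6.29. Peaks near gene ends with a pileup of 25 or more (84 peaks) had a median fold of 29.4.

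The height limit fell in a sparse part of the list. The highest member was at Unc45a, with a pileup of 24, followed by peaks at Cyp2c65, Tox3, Jagn1 and Atp4b, each with 21. Only 5 peaks met the other parts of the rule with a pileup of 25 or more, and the lowest 3 of them, at Stau2, Hbb-bt and Rasal2, had 33, 37 and 38. The distance limit cut a denser part. Summits just inside it lay 5000 bp (Dennd2a), 4994 bp (Rbbp8) and 4994 bp (Zbtb24) from an end, and those just outside at 5003 bp (Spin2d), 5011 bp (Xxylt1) and 5017 bp (Trim75).

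Depth differed between the ChIP libraries. After 1 tag was kept per position, P6D4 retained 2.07 M of 60.8 M tags (3.40%) and 70Z/3 retained 4.48 M of 30.9 M (14.5%), per the file headers. With 1 library per line, a difference between the lines and this difference between the libraries cannot be told apart as sources of a peak's absence from the 70Z/3 list. Of the 845 peaks, 76 lay within 1 kb of a 70Z/3 peak without touching it.

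The summits were spread over the whole window and were sparse close to the gene ends. The median distance was 3024 bp. Within 100 bp of an end lay 12 of 845 summits (1.42%, 95% Clopper-Pearson interval 0.736 to 2.47%), within 500 bp 42 (4.97%) and within 1 kb 102 (12.1%, 9.95 to 14.5%). Of the bases within 5 kb of a gene end, 2.63% lie within 100 bp, 12.7% within 500 bp and 24.2% within 1 kb. The share of summits was thus below the share of bases at each of these distances, and the intervals, which cover counting error alone, lay below it. By height, 13.6% of the 199 members with a pileup up to 7 lay within 1 kb, 11.2% of 409 with 8 to 11, 10.7% of 187 with 12 to 15, and 9 of 50 with 16 to 24 (interval 8.58 to 31.4%). These intervals overlapped.

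**Figure D1:**
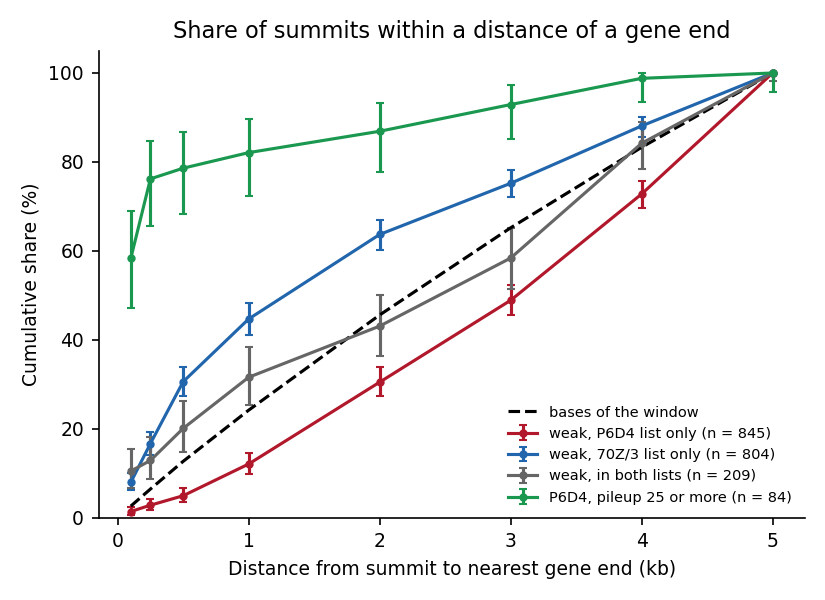
Cumulative share of summits (percent, y axis) within a distance of the nearest gene end (kb, x axis) for 4 sets of peaks, with 95% Clopper-Pearson intervals as bars, and for the bases of the window (dashed). The weak peaks of the P6D4 list alone run under the dashed line, with 12.1% within 1 kb against 24.2% of bases, and the peaks with a pileup of 25 or more run above it.

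Other gene-end peaks were placed closer. Of 804 weak peaks found in the 70Z/3 list alone, chosen by the mirrored rule, 44.7% (41.2 to 48.2%) lay within 1 kb of an end, with a median distance of 1219.5 bp. Of 209 weak P6D4 peaks that overlapped a 70Z/3 peak, 31.6% (25.3 to 38.3%) did, and of the 84 with a pileup of 25 or more, 82.1% (72.3 to 89.6%), with a median distance of 75 bp. The intervals of the members and of each of these sets did not overlap. They treat peaks as independent, though 45.0% of the members share a gene with another member, so they may be too narrow. With the peak nearest to the end kept for each gene, 15.1% of members lay within 1 kb. These are shares of peaks in 1 library per line, and no test between conditions was made from them.

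The members also lay mostly outside genes. A summit fell inside a protein-coding gene for 243 of 845 members (28.8%, 25.7 to 31.9%), whereas 54.1% of the bases of the window are inside one and 65.5% of the weak 70Z/3 peaks were. Strand was known for the nearest gene of 685 members. Of these, 301 were nearest to the start and 384 to the far end. Start and far end here are the gene's outer bounds, and the start used for the promoter window can lie elsewhere. At starts, 209 of 301 summits (69.4%) lay upstream, and at far ends 307 of 384 (79.9%) lay beyond the end. Among the weak 70Z/3 peaks with known strand, 63.3% were nearest to a start, and 36.3% of those were upstream. The 209 weak P6D4 peaks that overlapped a 70Z/3 peak were closer to the members, with 34.0% (27.6 to 40.8%) inside a gene. Of those at starts 60.4% lay upstream, and of those at far ends 77.1% lay beyond. Among P6D4 peaks with a pileup of 25 or more, 46.4% were inside a gene, and 61.0% of those at starts lay upstream. A position outside genes and upstream of starts was thus not particular to the members.

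**Figure D2:**
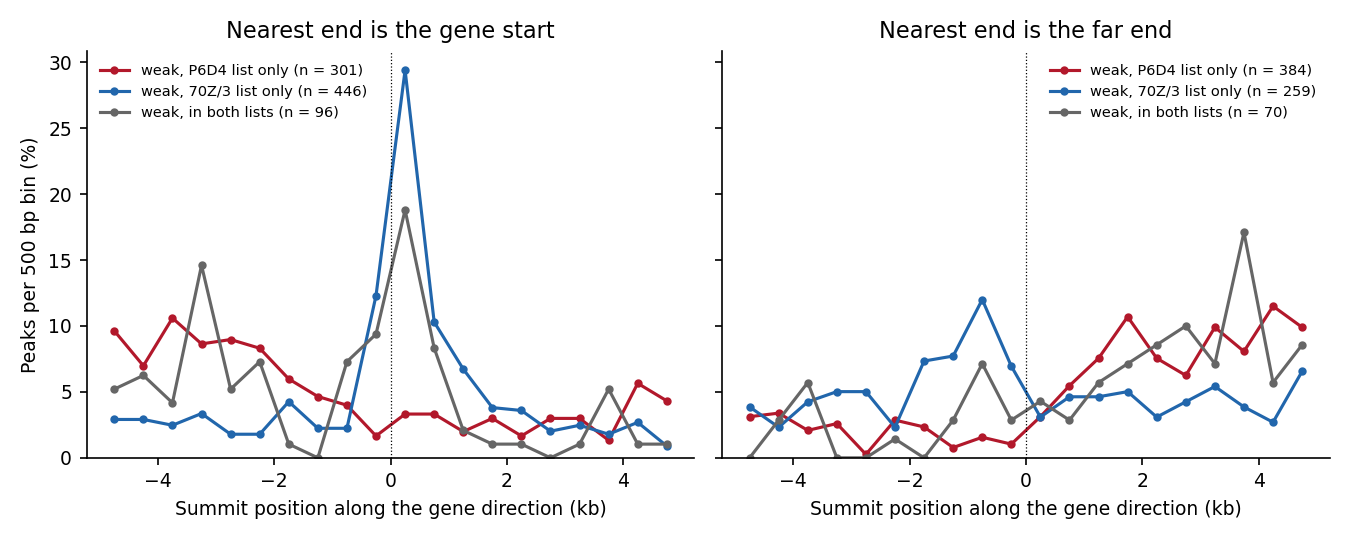
Share of peaks per 500 bp bin (percent, y axis) against summit position along the gene's direction (kb, x axis), for weak peaks of either list alone and of both. Position 0 is the gene's outer bound at its start (left) or far end (right). The 301 and 384 members show no rise at 0 and sit mostly upstream of starts and beyond far ends; the 70Z/3 peaks rise just after the start.

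Members often shared a gene. At 151 of the 616 genes there were 2 or more, which together held 380 of the 845 peaks (45.0%). The weak 70Z/3 peaks had 135 of 804 (16.8%) at such genes, and the weak P6D4 peaks in both lists 61 of 209 (29.2%). Peaks at 1 gene are not independent of each other. Zswim9 and Shprh, the latter a helicase and ubiquitin ligase of DNA damage tolerance, had 6 each, and Klhl6 and Cfap20 had 5. By chromosome, X held 73 members (8.64%, against 4.58% of protein-coding genes) and chromosome 7 held 96 (11.4% against 9.62%).

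The larger functional classes held shares of the member genes near their shares of all 21111 protein-coding genes outside chromosome 15. Zinc finger genes made up 13 of 616 member genes (2.11% against 2.16% of all genes), ubiquitin pathway genes 14 (2.27% against 1.72%), solute carriers 9 (1.46% against 1.70%) and vesicle transport genes 9 (1.46% against 1.34%). Olfactory and vomeronasal receptor genes, which serve chemical sensing, made up 48 (7.79% against 6.97%). Cytokine and immune signalling genes made up 4 (0.649% against 1.25%): Il18rap, Il1f9, Il23r and Tlr4. No member gene was among the 81 cytosolic ribosomal protein genes, the 99 kinase cascade genes or the 29 thymocyte genes. Of 26 pre-B genes 2 were members, Blk and Blnk, and of 14 known Miz1 targets 1, Cdkn1a. Over all 21111 genes 2.92% were member genes, so classes of this size hold few or none at that share, and nothing is read from these small counts.

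Predicted genes, named by a Gm number or a Rik clone, made up 126 of the 616 member genes (20.5%) against 8.17% of all protein-coding genes, a class added after the values were seen. They held 36 of the 93 genes with a summit within 1 kb. Without them the share of summits within 1 kb was 8.68%. Of the 126, 63 had a row in the count files, and 58 of those were under 1 CPM in both lines. In the whole class 1035 had a row, and 851 of those were under 1 CPM in both lines. By share of the class, 7.31% of predicted genes were member genes, against 2.92% of all genes. At weak peaks of the 70Z/3 list alone the shares were 5.45% and 3.44%. A surplus of predicted genes was thus larger at the members but not particular to them.

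Promoters of the member genes were poorer in G and C than promoters in general. The median G and C content of 508 member promoters was 51.3%, against 56.3% over 17070 promoters and 59.7% over 638 promoters of genes at the weak 70Z/3 peaks. The word GGGCGG, searched on both strands, was found in 34.8% of member promoters, 49.0% of all and 59.1% of those at the 70Z/3 peaks. CCAAT, also on both strands, was found in 42.3%, 42.4% and 42.2%. ATCGGT was found in 2.56% of member promoters and 2.85% of all, ATCGAT in 1.57% and 1.00%, and the E-box CACGTG, bound by Myc and its partners, in 6.50% and 8.89%. These words lie in a window around the start, which for most members is not where the peak is; a match is not a site.

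The RNA libraries matched the labelled lineages. All 8 pre-B markers, among them Pax5 and Ebf1, were at 95.5 to 373 CPM in 70Z/3 and at most 0.269 CPM in P6D4. All 8 thymocyte markers, among them Cd3e, Thy1 and Ptcra, were at 30.5 to 669 CPM in P6D4, while 2 of them, Notch1 and Il2ra, also passed 1 CPM in 70Z/3. Markers of other cells were low: 1 of 6, Lyz2, passed 1 CPM in P6D4 (1.96 CPM) and 3 of 6 in 70Z/3, up to 12.3 CPM for Lyz2. The libraries held 45.5 to 54.8 M counts in genes.

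Most genes at the members had little RNA in either line; in RNA from whole cultures, fewer transcribing cells and less RNA per cell cannot be told apart. Of the 616 genes 537 had a row in the count files. A mean of at least 1 CPM was reached in both lines by 161 (30.0%, 26.1 to 34.1%), in P6D4 alone by 18 (3.35%), in 70Z/3 alone by 48 (8.94%) and in neither by 310 (57.7%, 53.4 to 61.9%). Over 19869 protein-coding genes the shares were 43.4, 4.38, 5.65 and 46.5%. No count in any of the 6 libraries was found for 198 member genes (36.9%) against 26.3% of all.

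Genes at weak 70Z/3 peaks were more often transcribed, with 53.9% of 660 at 1 CPM in both lines and 33.5% in neither. At the P6D4 peaks with a pileup of 25 or more, 86.4% of 81 genes reached 1 CPM in both lines. Of 139 genes at weak P6D4 peaks that overlapped a 70Z/3 peak, 42.4% reached it in both lines and 51.8% (43.2 to 60.3%) in neither. No count in any library was found for 36.7% of these 139, so little RNA was not particular to the member genes. Without predicted and chemosensory receptor genes, 48.8% of 432 member genes stayed under 1 CPM in both lines, against 40.4% of all genes so reduced. Among the 42 chemosensory receptor genes with a count row, 41 were under 1 CPM in both lines, as were 1329 of 1332 in the whole class. The exception among the member genes, Vmn2r96, was at 0 in P6D4 and at 2.23 CPM ± 0.319 (SD, n = 3) in 70Z/3.

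**Figure D3:**
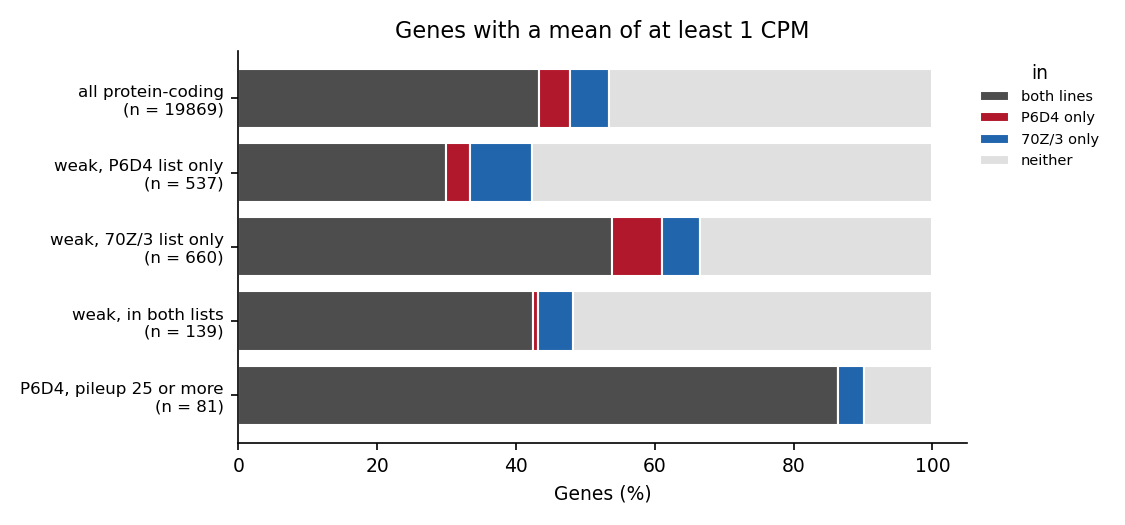
Share of genes (percent, x axis) with a mean of at least 1 CPM over 3 libraries in both lines, in 1 line or in neither, for all protein-coding genes and for genes at 4 sets of peaks. The genes at weak peaks of the P6D4 list alone have 57.7% in neither line, against 46.5% of all genes.

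Between the lines, member genes were more often lower than higher in P6D4. Of the 616 genes, 243 had enough counts to be tested, 92 of them (37.9%) were higher and 131 (53.9%) lower in P6D4 by edgeR's quasi-likelihood test at an adjusted p under 0.05, and 20 were not called. The 2 lines are different cell types, and over all 13750 genes tested 86.5% were called, 43.3% higher and 43.2% lower. Over the 11425 protein-coding genes tested outside chromosome 15, 88.4% were called, 43.1% higher and 45.3% lower. The median log2 difference was -0.25 over the member genes and 0.01 over all genes. Over a 2-fold difference (glmTreat of edgeR), 37 members (15.2%) were higher and 78 (32.1%) lower. Of all genes 35.2% were called, 16.6% higher and 18.6% lower, and of the protein-coding genes 15.8% were higher and 18.6% lower. In 132 member genes all 3 libraries of 70Z/3 lay above those of P6D4, in 92 all 3 of P6D4 lay above, and in 19 the groups overlapped. This count was not made over all genes, of which 86.5% were called, so it is not read as a trait of the members.

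The counts were also taken by distance. Where the nearest summit was over 1 kb away, 79 of 211 tested genes were higher and 117 lower. Where it was within 1 kb, 13 of 32 were higher and 14 lower, with a median log2 difference of 0.05; the difference between the near and the distant genes was not tested. At the 468 tested genes of weak 70Z/3 peaks, 233 were higher and 186 lower in P6D4, with a median of 0.13, and over a 2-fold difference 104 and 84. At the 69 tested genes of weak P6D4 peaks in both lists, 33 were higher and 28 lower, but over a 2-fold difference 5 and 14. At the 74 tested genes of P6D4 peaks with a pileup of 25 or more, 27 were higher and 34 lower, over a 2-fold difference 2 and 8. More falls than rises over a 2-fold difference were thus not particular to the members among P6D4 peaks. The weak 70Z/3 peaks had more rises than falls.

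**Figure D4:**
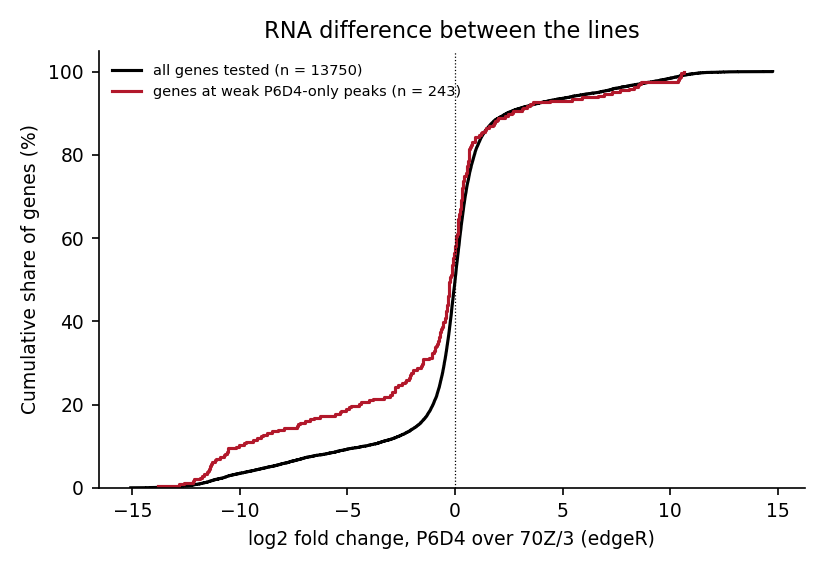
Cumulative share of genes (percent, y axis) by log2 fold change of P6D4 over 70Z/3 (x axis) for the 243 tested member genes and all 13750 tested genes. The member curve lies above that of all genes at negative values, and the curves run close together at positive ones.

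Among the 32 tested genes with a summit within 1 kb, 5 (15.6%) were higher and 6 (18.8%) lower in P6D4 over a 2-fold difference. These shares were near those of all protein-coding genes tested, 15.8% and 18.6%, so the genes below are given as single cases. Of the 5 higher genes, Fam199x and Ap3s1 had at least 10 CPM in the higher line. The other 3, named after their values were seen, were low. Plekha4 was at 1.74 CPM ± 0.221 in P6D4 and 0.350 ± 0.0510 in 70Z/3 (SD, n = 3), Apc2, a relative of the Wnt pathway gene Apc, at 0.321 ± 0.0597 and 0.0288 ± 0.0135, and 1700049E17Rik2 at 1.00 ± 0.230 and no count. Fam199x was at 93.9, 92.5 and 93.9 CPM in P6D4 and at 37.0, 33.9 and 34.0 CPM in 70Z/3, a log2 difference of 1.42 ± 0.04 (SE, edgeR adjusted p = 8.15e-13), with the summit 950 bp beyond its far end. Ap3s1, a subunit of the AP-3 adaptor that sorts cargo to lysosomes, was at 66.5, 68.9 and 70.6 CPM against 32.0, 31.0 and 32.5 CPM, a log2 difference of 1.11. Both were higher in every P6D4 library than in any 70Z/3 library. Lrp8, a receptor for reelin and apolipoprotein E, was at 104, 101 and 102 CPM against 60.9, 63.2 and 63.2 CPM, a log2 difference of 0.71. Spcs1, a subunit of the signal peptidase, was at 98.5 CPM ± 2.68 (SD, n = 3) against 74.7 ± 1.12. The other 4 rises named at 10 CPM or more in the higher line were smaller: 0.29 for Carf, a calcium-responsive transcription factor, 0.25 for Nudt9, an ADP-ribose hydrolase, 0.16 for Ipp and 0.13 for the deubiquitinase Usp25 on the log2 scale.

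The falls named by the same limit of 10 CPM had log2 differences from -0.48 to -6.72. Gpr174, a G protein-coupled receptor of lymphocytes, carried its summit 286 bp inside the gene's outer bound on the start side. That summit was not within 1 kb of the gene's promoter window. Gpr174 RNA was at 0.360, 0.323 and 0.554 CPM in P6D4 and 43.4, 45.3 and 41.2 CPM in 70Z/3 (log2 difference -6.72 ± 0.11 SE, edgeR adjusted p = 1.12e-15). The predicted gene Gm11127, whose reads could be shared with near-identical copies, was at 8.11, 7.72 and 8.82 CPM against 167, 167 and 173 CPM. Wdr31, a WD repeat protein, was at 3.39, 3.38 and 3.06 CPM against 45.7, 47.7 and 45.7 CPM, with the summit 223 bp beyond its far end. In these 3 genes the lines lay far apart, with log2 differences of -6.72, -4.37 and -3.82. Dusp7, a phosphatase of ERK kinases, was at 7.88 CPM ± 0.272 (SD, n = 3) against 53.9 ± 4.31. Parp11, Zfp263, Klhl6 and Klhl24 fell by 0.92, 0.87, 0.57 and 0.48 on the log2 scale; Klhl6, a ubiquitin ligase adaptor needed in germinal centre B cells, had 5 member peaks.

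**Figure D5:**
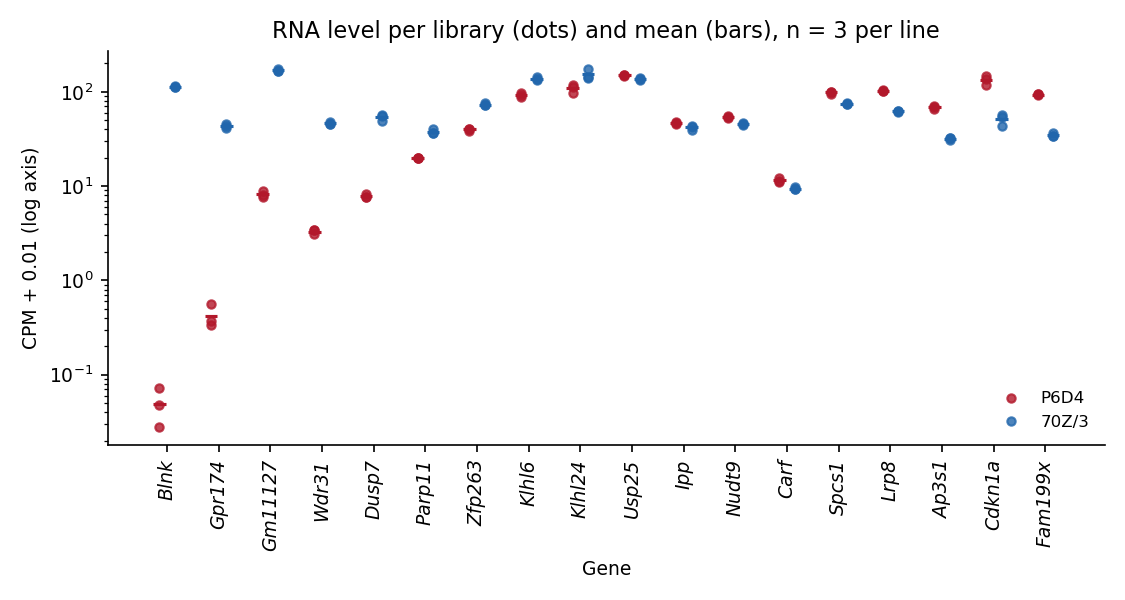
RNA level of each library (dots, CPM + 0.01 on a log axis) and the mean of 3 (bars) in P6D4 and 70Z/3 for the genes with the largest called rises and falls within 1 kb of a summit (limited to genes that reach 10 CPM in 1 line and whose lines do not overlap), and for Cdkn1a and Blnk. From left to right the log2 difference goes from -11.44 at Blnk to 1.42 at Fam199x.

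At 5 of the 8 peaks with the highest fold, the nearest gene had 2 counts or fewer over all libraries. Unc45a (19.2), a chaperone of myosin, was at 47.2, 45.8 and 47.6 CPM in P6D4 and 36.1, 39.3 and 37.8 CPM in 70Z/3. Jagn1 (16.9), a protein of the endoplasmic reticulum, was at 34.3 CPM ± 0.668 against 72.8 ± 0.600 (SD, n = 3), and Carf (16.1) at 11.6 ± 0.532 against 9.40 ± 0.247. Cyp2c65, Tox3, Slitrk3, a neuronal adhesion protein, and Atp4b, a subunit of the gastric proton pump, had no count in any library, and Sectm1a had 2 counts in all. A count of 0 allows up to 3 counts per library, 0.0541 to 0.0666 CPM here.

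The genes closest to a summit in the functional classes with 3 or more member genes, predicted genes left out, ranged from silent to well transcribed. Of those named, Zfp46 was the closest, with the summit 71 bp before the gene's outer bound on the start side. Its promoter window lay 329 bases from the summit. Zfp46 RNA was at 18.8, 20.7 and 19.2 CPM in P6D4 and 23.4, 20.1 and 21.1 CPM in 70Z/3. The groups overlapped and the difference missed the threshold (edgeR adjusted p = 0.0551, log2 difference -0.14). It passed with DESeq2 (adjusted p = 0.0355), with its size factors (0.0326), without a filter on low counts (0.0415), and without P6D4 replicate 2 (0.0371) or 70Z/3 replicate 2 (0.0180), and over all alternatives but the 2-fold test the adjusted p ran from 0.0180 to 0.224. Vamp2, a vesicle fusion protein, was called at a log2 difference of 0.16 (adjusted p = 0.0125), though its libraries overlapped; without P6D4 replicate 2 or 70Z/3 replicate 3 the adjusted p was 0.0547 and 0.0820. Tmem41a was at 39.8 CPM ± 1.63 against 7.15 ± 0.624 (SD, n = 3). Slc25a2, a mitochondrial ornithine carrier, was at 0.502 against 0.127 CPM. Olfr196, Olfr774 and Tmem72 had no count in any library, and Il1f9 and Slc44a5 had 6 and 11 counts in P6D4 and none in 70Z/3.

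Of a fixed set of lineage markers and genes of the Miz1, Myc and p53 pathways, Cdkn1a and Blnk carried a member. At Cdkn1a the summit lay 3415 bp beyond the far end; RNA was at 118, 137 and 146 CPM in P6D4 and 56.4, 43.5 and 53.4 CPM in 70Z/3, without overlap (log2 difference 1.39 ± 0.09 SE, edgeR adjusted p = 3.74e-09). At Blnk, the adaptor of the pre-B cell receptor, the summit lay 1984 bp beyond the far end and RNA was at 0.0180, 0.0379 and 0.0616 CPM against 116, 111 and 112 CPM. Tlr4, the receptor for lipopolysaccharide, had 2 counts in all of P6D4 and 58.0, 54.9 and 55.9 CPM in 70Z/3, a ratio of 4415 with a counting interval of 1222 to 36465.

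Several of the largest falls had summits over 1 kb from an end; these genes were picked after their values were seen. Tmsb4x, an actin-binding peptide, was at 0.216, 0.133 and 0.0821 CPM in P6D4 and 689, 696 and 683 CPM in 70Z/3. Blk, the B lineage Src kinase, had 2 counts in P6D4 and was at 52.8, 53.2 and 52.8 CPM in 70Z/3, a ratio of 4154 (counting interval 1149 to 34304). In these genes the 2 lines lay far apart. Rfx3, a transcription factor of cilium genes, had none in P6D4 and was at least 622-fold higher in 70Z/3, and the growth factor gene Vegfc was at least 321-fold higher, both against 3 counts per library. Hhex, a homeobox factor of blood progenitors and B cells, was at 0.0375 against 93.5 CPM, and Optn, an autophagy receptor, had 2 counts in P6D4 against 29.6 CPM, a ratio of 2325 (643 to 19208).

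Several large rises, picked in the same way, were at genes of varied roles. Cxadr, an adhesion receptor, was at 40.4, 41.4 and 44.5 CPM in P6D4 and 0.0426, 0.0207 and 0.0222 CPM in 70Z/3. Plekha8, a lipid transfer protein of the Golgi, had 3 counts in 70Z/3 and was at 31.6 CPM ± 1.65 (SD, n = 3) in P6D4, a ratio of 1481 (506 to 7182). Both genes were near silent in 70Z/3. The zinc finger gene Zfp629 was at 34.8 against 0.0927 CPM, and Shb, an adaptor in T cell receptor signalling, at 22.8 against 2.63 CPM. All 4 were higher in each P6D4 library than in any 70Z/3 library, and their summits lay 1875 to 4920 bp from a gene end.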

How the data were processed

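Used were 6 RNA-Seq libraries and 1 Miz1 ChIP-Seq library per line; the histone marks and inputs were not analysed here. The deposited RNA values are counts per Ensembl gene, and per the submitters' processing notes alignment and counting used HTSeq, TopHat2 2.0.10, Bowtie2 2.10, bedtools and SAMtools (mm10, GRCm38). How strand was counted: not given in the sources used here; overlapping and antisense genes can share counts. Per the file headers, the authors called peaks in MACS (version 2.0.10.20120913) at a q-value threshold of 0.01 with 1 tag per position; the deposited scores per peak are a pileup signal, a fold (ratio to local background) and −log10 p, and they are the authors'.

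Gene ends are the bounds of 21887 RefSeq protein-coding genes (GRCm38.p6); strand came from the promoter table, which held 17492 of them. Overlap meant at least 1 bp. Of 38293 gene IDs, 36345 had a symbol. Counts were filtered with filterByExpr, scaled by TMM and tested with edgeR 4.0.16 (Benjamini-Hochberg over 13750 genes, adjusted p under 0.05); the SE is the fold change over the square root of F. CPM use TMM-scaled library sizes. Scripts were tested on simulated data. Replicate numbers carry no stated pairing. Levels were not scaled by gene length, so they are not compared between genes. No genome was used, so bases under peaks are not shown.

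The members and lists were chosen with earlier results of these data known. Genes were named by a rule: the 8 peaks of highest fold; the 8 largest called rises and falls with a summit within 1 kb, at least 10 CPM in the higher line and lines that do not overlap; the 2 closest genes of each functional class with 3 or more members (predicted genes left out); the 3 peaks on each side of both limits; and members among a fixed set. Python 3.11.15, scipy 1.17.1, matplotlib 3.10.9, R 4.3.3 and DESeq2 1.42.0 were used.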

Additional observations from a re-analysis of the deposited data

How the results depend on the processing

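Of the 243 tested member genes, 92 were higher and 131 lower in P6D4. Leaving out 1 RNA library at a time gave 91 to 95 higher and 132 to 135 lower, and the replicate block, for numbers that share no more than a number (deviation correlations -0.158, -0.136 and 0.0411), gave 93 and 130. Over a 2-fold difference the counts were 37 and 78, and with summits within 1 kb 13 and 14; both settings count fewer genes by construction. At 10 CPM, 23.8% of member genes passed in both lines and 67.2% in neither. With summits within 1 kb, 37.3% passed 1 CPM in both lines and 5.38% were chemosensory receptor genes, and no promoter window within 1 kb of a summit held CACGTG (0.0%). Alternatives chosen after seeing the data gave 36.6% in both lines and 48.8% in neither without predicted and chemosensory genes, and 8.68% of summits within 1 kb without predicted genes and 15.1% with the nearest peak per gene. The share in both lines was 29.8 to 30.2% and in neither 57.7 to 58.1% when 1 library was left out. Over 44 single genes and 484 values, 465 kept their direction and side of the threshold, 14 lost the call (2 of them outside the 2-fold test, both Vamp2), 5 gained it (all Zfp46) and 0 reversed. 1 ChIP library per line limits every peak value.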
